A study of Mus musculus with 2 samples.

Results

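Cetn3 and Mblac2, which lie next to each other on chromosome 13, were 2.18-fold and 1.97-fold dimmer on the array of HDAC11 knockout macrophages than on the wild-type array, while the nearest genes before them, Polr3g and Lysmd3, differed by 1.25-fold or less. The genes described here are these 2 and their neighbours Polr3g, Lysmd3 and Arrdc3. Members were taken from the authors' full table as the main probesets whose symbol field held 1 of these names alone, which gave 5 of 24315 genes named by a single symbol. The group was put together because Cetn3 and Mblac2 were low on the knockout array, so the values of both on these arrays are a description and support nothing further.

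The cells were macrophages elicited in the peritoneum of C57BL/6 mice by thioglycollate, a broth that causes sterile inflammation. One group carried an HDAC11 knockout, a loss of the histone deacetylase HDAC11, and the other was wild type. Cells of both were left untreated in culture overnight, and RNA was taken from those that adhered. The knockout allele, the age and sex of the mice and the number of animals behind each RNA are not stated in the labels.

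Each genotype was measured on 1 array, 2 in all, so no difference has a replicate check, an error or a p-value. Values are RMA signals, a background-corrected and normalized probeset brightness on a linear scale, and each difference is the log2 signal of the knockout array minus that of the wild-type array. A gene counted as above the signal floor when its brighter signal reached 159, the median over all named genes, as 12158 genes did. The label of the knockout array was not checked by the targeted gene: the Hdac11 probeset read 134.5 for wild type and 147.2 for the knockout, both below the floor, and whether its probes lie in the deleted part is not given. The arrays also differed beyond the genes described here. Differences of the Y-linked genes Ddx3y, Kdm5d, Uty and Eif2s3y ran from -1.55 to -3.39. Their signals were 176.4 to 313.8 in wild type, above the floor, and 25.9 to 98.0 in the knockout, below it. With 1 array per genotype, a difference in the sex of the mice cannot be told apart from one in genotype. The median difference over 5331 intron control probesets was -0.36. The part of these shifts in the values below was not tested.

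The 9 measured macrophage markers of 10 listed were all above the floor on both arrays, the dimmest at 1709, and had a median difference of 0.00. All 6 T cell and all 3 measured erythroid markers were below the floor on both. The summed signal of the 8 mesothelial and fibroblast markers was 3872 in wild type and 3178 in the knockout, and the 6 that reached the floor were all lower, at a median of -0.28. The 6 B cell markers summed to 2573 and 1825, of which Ighm (1415 and 761) made up most of the difference. The Ighm probeset was not unique by the deposited annotation. Mast cell markers summed to 434 and 705, with Cpa3 alone above the floor. Neutrophil markers summed to 719 and 886. Of the 2 above the floor, S100a8 was higher in the knockout (203.1 and 375.6) and Cxcr2 lower (190.4 and 158.9). Eosinophil markers summed to 542 and 604, with Siglec5 (315.9 and 380.7) alone above the floor. Whether these other cells bear on the genes described here was not tested, and in RNA of a whole culture fewer cells of a type cannot be told apart from less RNA per cell.

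The members have unrelated functions. Centrins such as Cetn3 are calcium-binding EF-hand proteins of the centriole, the barrel of microtubules at the core of the centrosome, which is copied when a cell divides. Mblac2 has the metallo-beta-lactamase fold, shared by a broad set of hydrolases, and its human counterpart has been described as an acyl-CoA thioesterase. Polr3g is a subunit of RNA polymerase III, the enzyme that makes transfer RNAs, and can be replaced in the enzyme by its relative Polr3gl. Lysmd3 is a membrane protein with a LysM domain, a fold that in other proteins binds chitin and peptidoglycan. Arrdc3 is an alpha-arrestin, an adaptor that brings ubiquitin ligases of the NEDD4 family to membrane proteins.

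Cetn3 showed the largest difference of the 5. Its probeset (17288908, 25 probes, plus strand, chr13:81783292-81797157) had a signal of 960.9 in wild type and 441.3 in the knockout, a difference of -1.12 or 2.18-fold. Mblac2 (17288903, 19 probes, plus strand, chr13:81711417-81753275) had a signal of 730.4 in wild type and 371.4 in the knockout, a difference of -0.98 or 1.97-fold. Both signals of both genes stood above the floor, and every probe of each probeset was assigned to the gene's own mRNA. The probesets were unique by the deposited annotation. In order of the difference Cetn3 was the 27th lowest and Mblac2 the 34th lowest of the 12158 genes above the floor.

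The other members differed less. Polr3g (17294664, minus strand, chr13:81673837-81711013) had a signal of 442.1 in wild type and 353.3 in the knockout, a difference of -0.32 or 1.25-fold. Of its 26 probes 21 were assigned to the mRNA, so this probeset is less complete than those of the other members. Lysmd3 (17288898, 21 probes, plus strand, chr13:81657806-81671899) gave 602.3 and 593.9, a difference of -0.02. Arrdc3 (17288876, 25 probes, plus strand, chr13:80883410-80896042) was the 1 member brighter on the knockout array, at 1126 in wild type and 1269 in the knockout, a difference of 0.17. Thus 2 of the 5 were lower by 1.5-fold or more and none was higher by that much. Of all genes above the floor 1.01% were lower and 0.543% higher by 1.5-fold, and of the protein-coding ones 0.502% and 0.457%, shares given for scale only, since the members were picked on this contrast.

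**Figure D1:**
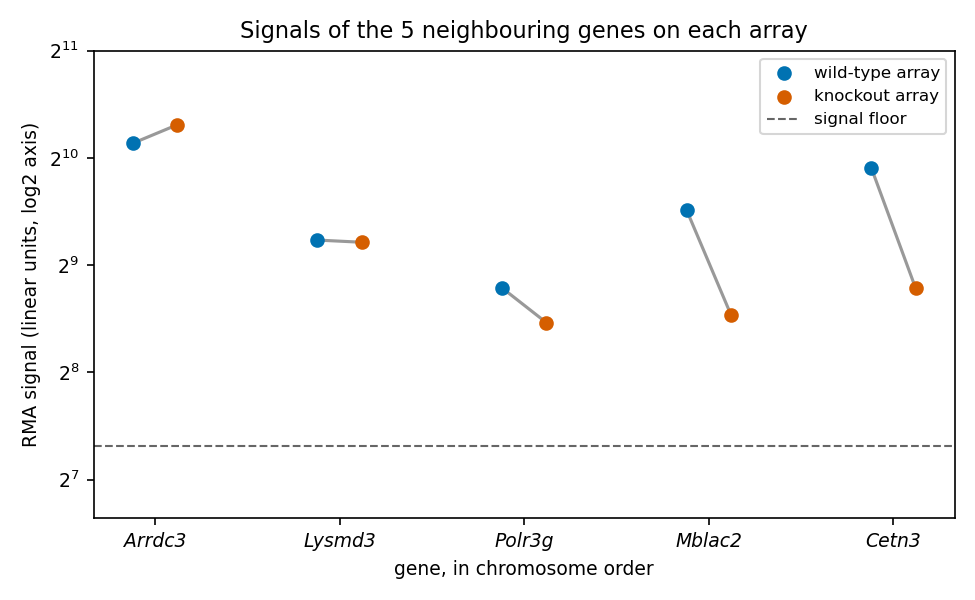
RMA signal (log2 axis) of each member on the wild-type array (blue) and the knockout array (orange), 1 array per genotype, with the signal floor of 159 as a dashed line. Cetn3 goes from 960.9 to 441.3 and Mblac2 from 730.4 to 371.4, while Lysmd3 differs little and Arrdc3 is slightly brighter on the knockout array; signals of different probesets are not comparable in level.

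To show how far such differences lie from those of other genes, each member was set beside the 500 genes above the floor with the most similar mean signal. For Cetn3 these genes had a median difference of -0.03 and an SD across genes of 0.20, and for Mblac2 -0.02 and 0.21. The central 95% of them ran from -0.38 to 0.38 around Cetn3 and from -0.49 to 0.34 around Mblac2, and both members lay below. Both were chosen for their low values, so their place below these ranges was set in advance and tests nothing. Polr3g lay inside its range of -0.43 to 0.30, Lysmd3 inside -0.38 to 0.42, and Arrdc3 inside -0.34 to 0.33. This spread is over genes on the same arrays and holds no variation between animals. Genes with longer genomic spans had lower differences on these arrays (Spearman rho -0.24 across 12158 genes, which are not independent replicates). The 500 genes of most similar span had medians of -0.01 for Cetn3 and -0.04 for Mblac2 and for Polr3g.

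**Figure D2:**
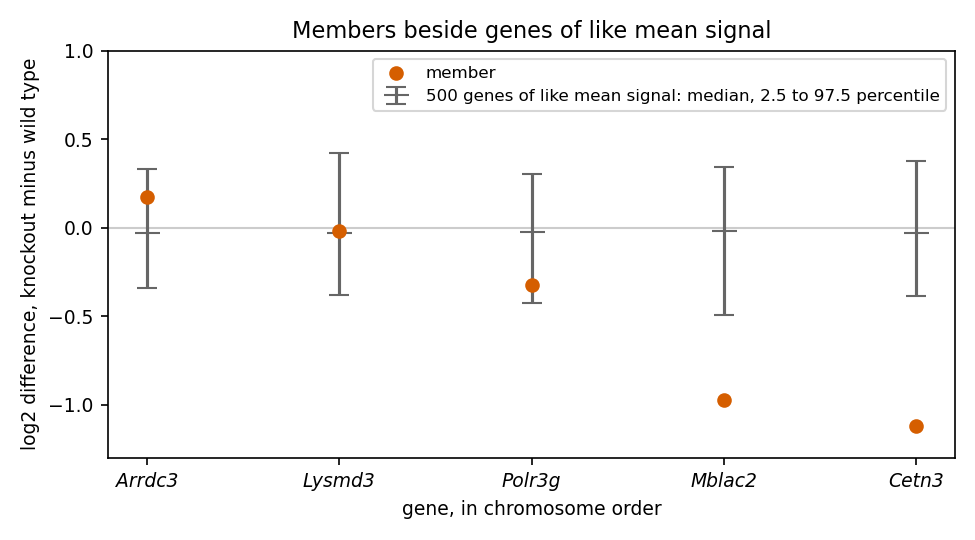
Log2 difference (knockout minus wild type) of each member (orange points) beside the median and central 95% of the 500 genes of most similar mean signal (grey bars, a spread over genes and not over animals). Cetn3 at -1.12 and Mblac2 at -0.98, both chosen for their low values, lie below their bars, and the other members lie within theirs.

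The members are packed closely apart from Arrdc3. Distances here are between probesets. Lysmd3 ends 1937 bases before Polr3g, which points the other way. The starts of Polr3g and Mblac2 lie 403 bases apart, and these genes point away from each other. Mblac2 and Cetn3 run in the same direction, with 30016 bases between the end of the first and the start of the second. Arrdc3 lies 761763 bases before Lysmd3. RefSeq's spans of 2 members reach further into these gaps, as Lysmd3 ends at 81672871 and Cetn3 begins at 81780636. In chromosome order the differences were 0.17 for Arrdc3, -0.02 for Lysmd3, -0.32 for Polr3g, -0.98 for Mblac2 and -1.12 for Cetn3.

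A further probeset without a gene symbol, picked out after its values were seen, begins in the stretch between the probesets of Mblac2 and Cetn3. It reads the minus strand from chr13:81778773-81783769 (17294677, 25 probes), starts 25497 bases after the end of Mblac2 and overlaps the first 478 bases of the Cetn3 probeset on the opposite strand. RefSeq's Cetn3 gene begins 2656 bases before that probeset, so the unnamed one also covers this part of it. Its signal was 129.6 in wild type and 69.7 in the knockout, a difference of -0.89. Both signals were below the floor, so its size is less certain than those of its neighbours. The 500 named genes of most similar signal had a median of 0.07 and an SD across genes of 0.22. All 3 main probesets from Mblac2 to Cetn3 were lower on the knockout array. Each was picked with its values known, so their likeness tests nothing.

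**Figure D3:**
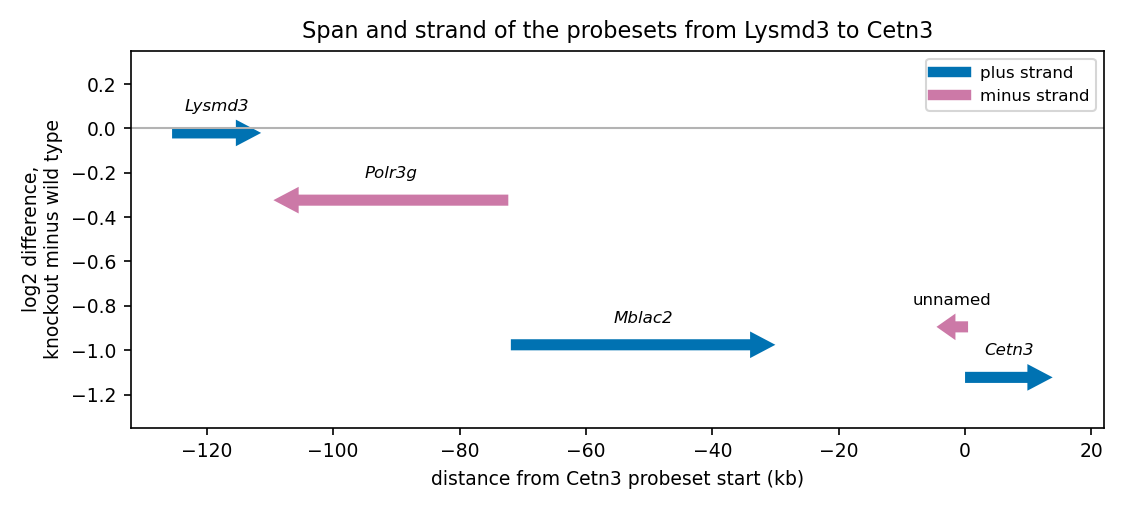
Span, strand and log2 difference (knockout minus wild type) of the probesets from Lysmd3 to Cetn3, plotted against distance from the start of the Cetn3 probeset in kilobases, with arrows pointing in the direction of transcription. The difference is near 0 for Lysmd3, -0.32 for Polr3g and between -0.89 and -1.12 for Mblac2, the unnamed minus-strand probeset and Cetn3.

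Sequences at the starts of Cetn3, Mblac2 and Polr3g are shown because Mblac2 and Polr3g share the interval between their starts yet differed by 0.65 in their log2 difference. They are the 250 bases before a transcript start that RefSeq's GRCm38.p6 promoter table lists for each gene, written 5′ to 3′ on the gene's own strand, and capitals mark CCAAT, the letters of the box read by NF-Y, on either strand. The deposited coordinates of Polr3g and Mblac2 equal those of this annotation, although the files name no build. The Cetn3 window lies inside the gene's full RefSeq span, which begins at 81780636, and so is not upstream of the whole gene. The Lysmd3 window, counted below, runs from 81657556 to 81657805 and overlaps that gene's span, which begins at 81657658.
Cetn3 (plus strand, chr13:81782997-81783246): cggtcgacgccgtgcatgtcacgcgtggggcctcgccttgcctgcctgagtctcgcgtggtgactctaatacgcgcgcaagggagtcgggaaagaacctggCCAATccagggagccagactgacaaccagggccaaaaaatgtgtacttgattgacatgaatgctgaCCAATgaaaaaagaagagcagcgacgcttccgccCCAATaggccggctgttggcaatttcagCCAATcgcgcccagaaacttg
Mblac2 (plus strand, chr13:81711167-81711416): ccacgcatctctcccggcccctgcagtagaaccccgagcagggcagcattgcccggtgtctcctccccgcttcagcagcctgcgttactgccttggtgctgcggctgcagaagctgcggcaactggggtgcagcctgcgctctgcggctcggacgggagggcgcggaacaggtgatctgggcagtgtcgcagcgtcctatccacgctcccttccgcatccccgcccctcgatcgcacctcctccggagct
Polr3g (minus strand, chr13:81711014-81711263): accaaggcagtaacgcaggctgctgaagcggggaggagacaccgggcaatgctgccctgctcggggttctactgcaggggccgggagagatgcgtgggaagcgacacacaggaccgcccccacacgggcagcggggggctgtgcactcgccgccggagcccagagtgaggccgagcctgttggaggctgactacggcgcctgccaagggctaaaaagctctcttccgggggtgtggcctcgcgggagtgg

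The windows of Mblac2 and Polr3g cover the same 97 bases of the shared interval, read from opposite strands. In the Cetn3 window the letters CCAAT occurred 4 times counting both strands, and they were in neither the Mblac2, the Polr3g nor the Lysmd3 window. The Arrdc3 window, 1 of 3 listed for that gene, held them 1 time. Of 32851 RefSeq windows of the same length, some of them overlapping, 33.9% held CCAAT at least 1 time and 0.840% at least 4 times. The GC box GGGCGG was found on either strand 1 time each in the windows of Cetn3, Mblac2 and Polr3g and 3 times in that of Lysmd3. It was not in the Arrdc3 window, and was in 32.7% of all windows. The ETS core CCGGAAG was found in the window of Polr3g alone of the 5 members, and in 6.91% of all windows. The Polr3g and Mblac2 windows together cover the whole interval between the starts of these genes. The ETS core and the GC boxes in these windows thus lie upstream of both genes. Which window holds them depends on where the windows end, so these counts show no difference between Polr3g and Mblac2 in the interval they share. The TATA box TATAAA, the CRE TGACGTCA, the E-box CACGTG, the cell cycle element TTTGAA and the STAT element TTCNNNGAA were in none of the 5 windows. GC content was 56.8% for Cetn3, 68.4% for Mblac2 and for Polr3g, 74.8% for Lysmd3 and 76% for Arrdc3, against a median of 52.4% over all windows.

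Pairs of genes that point away from each other were compared across the genome to give the Polr3g and Mblac2 values a scale. There were 681 such pairs of protein-coding neighbours above the floor with starts within 1000 bases. In 361 of the 681 pairs both partners differed in the same direction, and the Pearson r of their differences across pairs was 0.09. The partners' log2 differences lay apart by a median of 0.14, with a 95th percentile of 0.43. In 4 of the 681 pairs, Polr3g and Mblac2 included, they lay apart by 0.65 or more, a share of 0.587%. Mblac2 was chosen for its low value, so this places the pair and tests nothing.

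No other gene above the floor near the cluster reached 1.5-fold, but only 9 others were there to count. Of all genes above the floor 1.55% reached it in either direction. Few would thus be looked for among 9, and the count says nothing particular of the flanking genes. Within 5 Mb of the start of Cetn3 there were 14 genes above the floor, of which Cetn3 and Mblac2 were lower and none higher by 1.5-fold. The 9 that are not members ranged from -0.50 for Pou5f2 to 0.11 for Cox7c, with a median of -0.11, and 7 were lower and 2 higher by any amount, where 53.2% of all genes above the floor were lower and 46.4% higher. Mef2c, a transcription factor gene and the next of these genes after Cetn3, gave 681.5 and 541.0, a difference of -0.33. A dimmer Mef2c probeset on the minus strand, below the floor, gave 112.9 and 136.4, a difference of 0.27. Between Arrdc3 and Lysmd3 the long receptor gene Gpr98 gave 56.04 and 63.9, and Gm4211 and 9330111N05Rik gave signals between 38.2 and 48.7, all below the floor. Also below it were 1700023H06Rik (32.5 and 33.2), which lies inside Arrdc3 on the opposite strand, and A830082K12Rik (46.4 and 49.4), the next named gene before Arrdc3. A probeset placed there under the symbol Actg1 (6311 and 5635) was not unique by the deposited annotation. The next named probeset after Cetn3, Mir3961, gave 144.2 and 106.4, below the floor. Over the 455 genes of chromosome 13 above the floor the median difference was -0.02, and 5 were lower and 4 higher by 1.5-fold. Without the members 3 of 450 were lower and 4 higher. Over all genes above the floor these shares were 1.01% lower and 0.543% higher.

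**Figure D4:**
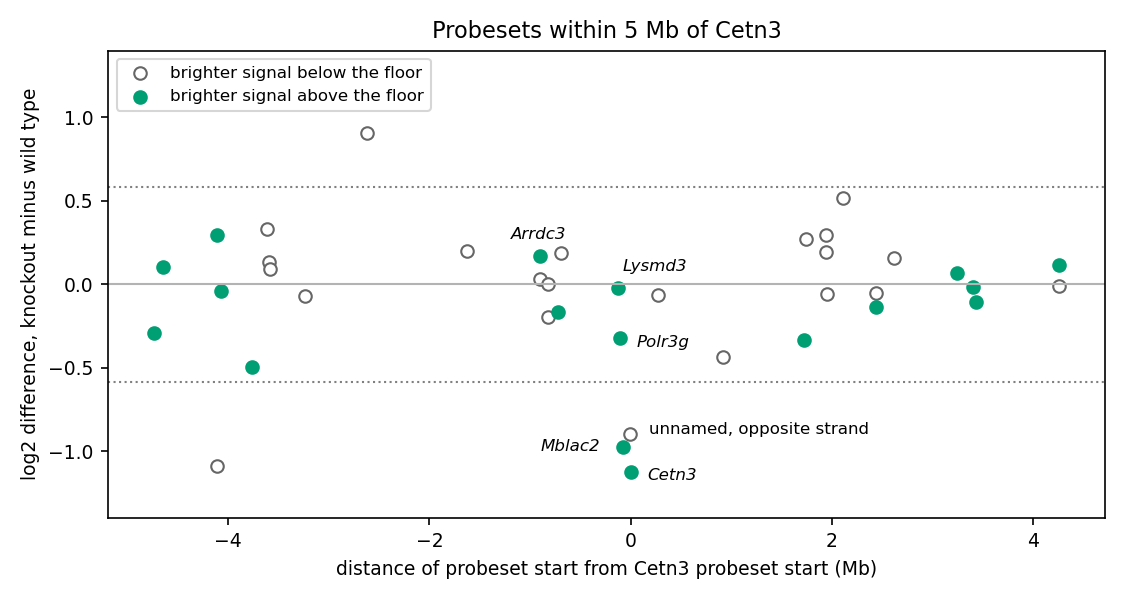
Log2 difference (knockout minus wild type) of the 39 main probesets that start within 5 Mb of the Cetn3 probeset, against distance in Mb, with filled points for a brighter signal above the floor of 159 and dotted lines at 1.5-fold. Cetn3, Mblac2 and the unnamed minus-strand probeset lie together below the lower line at distance 0, and the other filled points lie between the lines.

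Neighbouring protein-coding genes that were both lower were few. Of 10296 neighbouring pairs of such genes above the floor, 6 had both lower by 1.5-fold or more and 1 had both higher. Without the limit to protein-coding genes, 11 of 12127 neighbouring pairs had both lower and 1 had both higher. Mblac2 and Cetn3 were 1 of the 6 protein-coding pairs. They were chosen because both were low, so their place here was set in advance and tests nothing. The others of the 6, named after their values were seen, were Ccl2 and Ccl7, Gm4951 and Iigp1, and 3 pairs formed by the 4 Y-linked genes.

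The genes whose signals on both arrays were closest to those of Cetn3, by Euclidean distance of the log2 signals over 2 arrays, were 9130004J05Rik (971 and 473, distance 0.10), the Notch ligand gene Jag1 (932 and 501, distance 0.19) and Gm19816 (1066 and 482, distance 0.20). Of these, 9130004J05Rik and Gm19816 were not unique by the deposited annotation. Those closest to Mblac2 were Ankdd1a (716 and 388, distance 0.07), Tbrg3 (686 and 358, distance 0.11) and Ocstamp, a gene of cell fusion in osteoclasts (651 and 364, distance 0.17). None of the 6 lies on chromosome 13. The distance takes in the brightness of different probesets, which are not comparable in level, so it ranks likeness of the array readings alone.

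Relatives of the members by function were described in 9 lists. Of their 119 genes above the floor none reached 1.5-fold in either direction, where 1.55% of all genes above the floor did, so few would be looked for among 119 and the count says nothing particular of the relatives. The median over all genes above the floor was -0.01.

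Among centrins and the proteins that bind them, 3 of the 10 that reached the floor were higher, 7 were lower and the median was -0.04. Cetn2, the centrin also found in DNA repair, had a signal of 555.3 in wild type and 702.3 in the knockout, a difference of 0.34, opposite in sign to Cetn3. Cetn1 (43.0 and 34.9) and Cetn4 (120.4 and 142.7) were below the floor, as was Ttk (144.9 and 113.9), the mitotic kinase. Mcm3ap, a messenger RNA export factor whose complex holds centrins, differed by -0.21. Among centriole and centrosome genes that reached the floor 27 of 34 were lower and 7 higher by any amount, where 53.2% of all genes above the floor were lower. Their median was -0.11, or -0.05 with the trend with genomic span removed, and they ranged from -0.36 for Odf2 to 0.40 for Cep63.

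Among RNA polymerase III subunits other than Polr3g, 6 of 16 above the floor were higher, 10 were lower and the median was -0.05. Polr3gl, the subunit that takes the place of Polr3g, gave 347.2 and 358.0, a difference of 0.04. Polr2e (0.27) and Polr2f (0.26), shared with the other RNA polymerases, lay furthest from 0. Polr3g at -0.32 was below the lowest of the others, Polr3a at -0.25. Factors that recruit or restrain the polymerase had 6 of 16 higher and 10 lower, with a median of -0.07, and Snapc3 (-0.37) and Snapc4 (-0.32) lay furthest from 0.

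Of 16 other genes with the metallo-beta-lactamase fold, 7 were higher, 9 were lower and the median was -0.05. Mblac1, the closest by name, gave 208.7 and 214.1, a difference of 0.04. Ethe1, a mitochondrial sulfur dioxygenase (0.40), and Hagh, a glyoxalase (0.21), lay furthest from 0. The 11 acyl-CoA thioesterases above the floor had a median of 0.08. Of these 8 were higher and 3 lower by any amount, where 46.4% of all genes above the floor were higher. Acot10 (0.28, not unique by the deposited annotation) and Acot2 (0.19) lay furthest from 0.

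The 4 other LysM domain genes above the floor had a median of 0.09, with Lysmd4 at 0.23 and Lysmd1, whose probeset was not unique, at 0.18. The 4 other alpha-arrestins had a median of 0.04, and Arrdc4 (0.17) and Arrdc1 (-0.13) lay furthest from 0. Of 8 arrestins, beta-adrenergic receptors and HECT ubiquitin ligases above the floor, 7 were lower and 1 higher by any amount. Of all genes above the floor 53.2% were lower. The median of the 8 was -0.17, or -0.10 for the list without a floor. The ligase genes Nedd4 (981.7 and 789.1, -0.31) and Wwp2 (-0.28) lay furthest from 0.

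**Figure D5:**
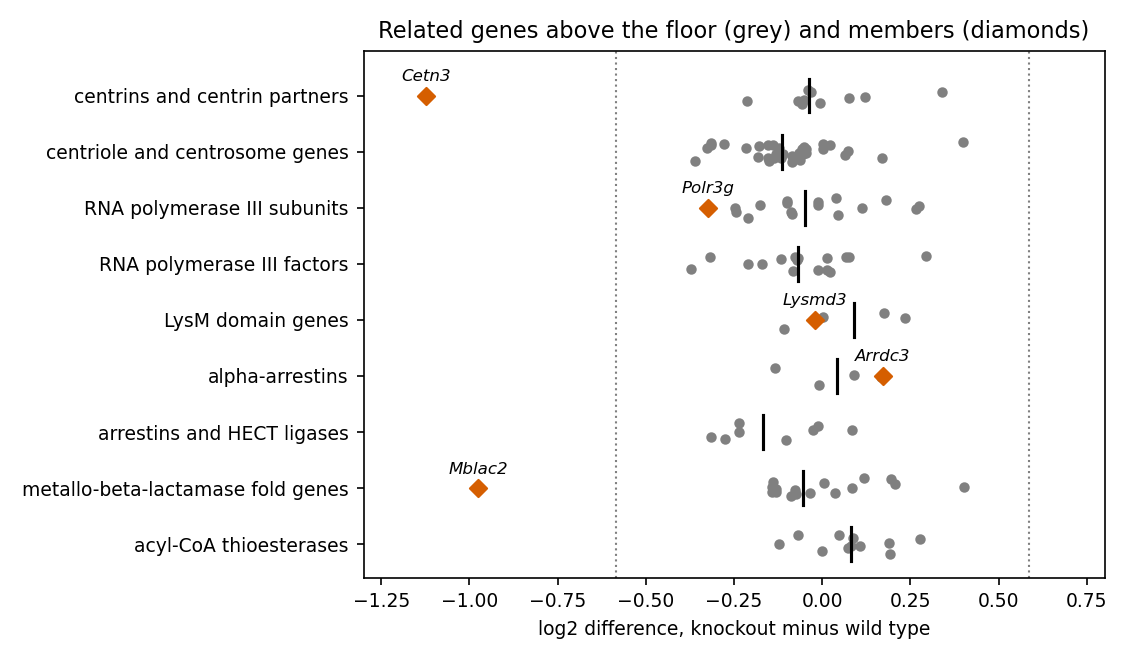
Log2 difference (knockout minus wild type) of related genes above the floor (grey points, black bar at the list's median) and of the members (orange diamonds, beside the list of their relatives), with dotted lines at 1.5-fold. No grey point passes a dotted line, and Cetn3 and Mblac2 lie to the left of it.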

How the data were processed

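Adherent peritoneal macrophages of 2 genotypes were measured on 1 Affymetrix array each. The workbook deposited by the authors holds linear intensity values, made with RMA in Affymetrix Expression Console 1.2.1, per the submitters' processing notes. The series matrix, also deposited, gives these as log2, with a largest deviation of 5e-05. The signed fold score deposited by the authors was recomputed from the signals and not used. The files name no genome build. From 33641 main probesets, the brightest of each gene stood for 24315 single-symbol genes. Each member had 1 probeset. With 1 array per group no test was possible, differences are log2 knockout minus wild type, and precision is limited by the number of arrays.

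Members and gene lists were chosen with earlier results of these data known. Named genes are the members, Hdac11, all genes between the outermost members and the next on either side, of each list of related genes the 2 furthest from 0 or those at 1.5-fold, and the 3 genes nearest to Cetn3 and to Mblac2. Others were named after their values were seen. RefSeq tables (GRCm38.p6) matched 5 of 5 members and gave the sequences. Alternatives covered the source of values, scaling, an offset, the floor and the trend with genomic span. Counting was run on simulated data, with 2-fold drops planted in normally distributed noise. This checks the counting rule alone and says nothing of the spread of the real differences. Software was matplotlib 3.10.9, statsmodels 0.14.6, scipy 1.17.1, pandas 2.3.3 and numpy 2.4.6 under Python 3.11.15.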

Additional observations from a re-analysis of the deposited data

How the results depend on the processing

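No paired analysis was possible because each genotype has 1 array and no result comes from a test. A member's difference counted as stable when it moved by less than 1 SD of the 500 genes of like signal, a list's median when it moved by less than the SD of its members, and a count within 1.5 times. By this all 35 alternative values of the members stayed, over the series matrix values, median centring, quantile and loess scaling, an offset of 16, removal of the span trend and the mean of all probesets, as did all 63 list medians. The series matrix holds the same signals and each member had 1 probeset. So these values and the mean of all probesets could not move a member. With the span trend removed, however, the median of centrins and their partners went from -0.04 to 0.01 and that of alpha-arrestins from 0.04 to -0.0014, so both changed sign, and that of centriole and centrosome genes from -0.11 to -0.05. Without a floor the median of arrestins and HECT ligases went from -0.17 to -0.10 and that of RNA polymerase III subunits from -0.05 to -0.01. Cetn3 lay between -1.15 and -1.09, Mblac2 between -0.999 and -0.93, Polr3g between -0.35 and -0.29, Lysmd3 between -0.04 and 0.01 and Arrdc3 between 0.15 and 0.20. Of the alternatives for counts of genes, those within 5 Mb of Cetn3 included, 45 stayed and 9 moved, the latter all counts over all genes. Dropping the floor gave 250 higher at 1.5-fold, 258 lower at 1.5-fold and 25 higher at 2-fold. Raising it to the 75th percentile, which leaves fewer genes, gave 23 higher and 35 lower at 1.5-fold, with 4 higher and 9 lower at 2-fold. Over protein-coding genes alone, chosen after seeing the data, 56 were lower by 1.5-fold and 10 lower by 2-fold, against 123 and 33 over all genes above the floor, so the background share of lower genes is 0.502% in place of 1.01%. The authors' probe-level processing was taken as deposited.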

Other observations

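Of the 39 main probesets that start within 5 Mb of Cetn3, 22 were below the floor on both arrays. Among these, besides the unnamed minus-strand probeset beside Cetn3, D13Mgi7 had a signal of 42.4 in wild type and 19.9 in the knockout, a difference of -1.09, and an unnamed probeset (17288872, 8 probes, not unique by the deposited annotation) gave 19.96 and 37.4, a difference of 0.91. Both were picked out after their values were seen, and their dim signals leave the sizes uncertain.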
